A study of Rattus norvegicus with 24 samples.

Results

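The 10 immediate early genes Fos, Fosb, Jun, Junb, Atf3, Egr1, Myc, Dusp1, Ier2 and Ier3 were examined in rat liver, rat by rat and across 3 diets. They were taken by symbol from the array's own annotation, and 11 of the array's 30367 probes that are not controls carry one of these names, with 2 probes for Egr1 and 1 for each of the others. The array names 25885 different genes or transcripts in all. None of the 11 probes differed between diets past the threshold used here. The rats of one diet differed from each other far more in most of these genes than in a typical gene, and 7 pairs of the genes were correlated among the rats. The spread of Fosb and its pairs with Jun and with Ier3 must be read with care, since Fosb also followed the signal depth of the arrays. With closely alike arrays averaged, 6 pairs were left.

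Immediate early genes are transcribed within minutes of a stimulus, without the need for new protein synthesis, and their mRNAs are short-lived. Growth factors, cytokines and stress reach them through MAP kinases, which act on transcription factors such as SRF and CREB already bound at their promoters. Fos and Jun family proteins pair to form the transcription factor AP-1, and many of the other products either switch on later genes or feed back on the kinases. In the liver they are known for their rapid rise after partial hepatectomy, injury and the handling of the tissue itself.

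Male Wistar rats were fed for 42 days a diet with 1% cholesterol, which all 3 groups received. The Ch group had nothing else added, the ChGENE group had 5% freeze-dried Geneva kiwifruit (Actinidia arguta) in that diet, and the ChHAYW group had 5% freeze-dried Hayward kiwifruit (Actinidia deliciosa). Each group held 8 rats, and each rat had its own 1-colour array with no pooling. The study holds no group without cholesterol, no age of the rats was found in the labels or methods, and the labels say that the livers were kept cold but unfrozen for a night before deep freezing, while the study's methods describe prompt freezing. All 12 hepatocyte markers examined, Alb and Apoa1 among them, were above background on every array.

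The level of a gene is given here as the log2 signal of its probe minus the 75th percentile of the probes on the same array, so a level of 0 is that percentile and a difference of 1 is a doubling. Levels of different probes cannot be set against each other. The 75th percentile itself, the measure of signal depth used here, was lowest on the Ch arrays, where it spanned 188 to 653 around a median of 421, against 388 to 775 (median 675) for ChGENE and 409 to 1049 (median 731) for ChHAYW. The 8 arrays of each diet carried 1 scan date that no other diet had. From this 1 slide per diet was inferred, and no slide or hybridisation record was read. A difference between diets and one between slides or scans therefore cannot be told apart. In addition, 3 pairs of arrays were far more alike than the rest: ChHAYW 6 and 7, ChGENE 4 and 5, and Ch 1 and 2. Across 14045 probes above background on all 24 arrays, the SD of the log2 difference within these pairs was 0.180, 0.203 and 0.218, while the other pairs of arrays ranged from 0.345 to 1.13. The labels call all of them separate biological replicates. The pairs differed by 2.16, 2.49 and 3.16 times the variance expected from the spread of replicate spots, against 6.755 or more in the other pairs. Replicate spots share 1 hybridisation, so this ratio cannot tell separate rats from repeat arrays of 1 rat. The arrays were kept as separate rats on the labels alone, and every n of 8 or 24 rests on this. Results were also computed with each such pair averaged to 1 rat, an alternative chosen after the data were seen.

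RefSeq promoter windows of equal length around the start site (assembly GRCr8) could be matched to 5 of the 10 genes: Fosb, Junb, Egr1, Dusp1 and Ier2. The sequence TGACG, the core of the cyclic AMP response element that CREB and ATF proteins bind, was found on either strand in 4 of these 5, Junb, Egr1, Dusp1 and Ier2. It occurs in 21.2% of the 33469 promoter windows in that table. The CArG box, the binding site of SRF in the serum response element, was found in the Egr1 window alone of the 5, at 2 places that begin at positions −105 and −83 from the start site, and in 1.64% of all windows. TGANTCA, the AP-1 site, was in none of the 5 and in 7.33% of all windows, and CACGTG, the E-box that Myc binds, was in the Dusp1 window and in 6.42% of all windows. The stretches that carry TGACG before the start sites of Junb, Ier2 and Dusp1 are shown because these genes are followed rat by rat below. Capitals mark each TGACG on either strand, with both strands overlapping where the capitals run on, and matches are letters in a window, not tested sites.
Junb (chr19:40080931-40081015, + strand): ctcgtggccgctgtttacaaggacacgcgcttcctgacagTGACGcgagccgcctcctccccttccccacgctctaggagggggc
Ier2 (chr19:40399267-40399354, + strand): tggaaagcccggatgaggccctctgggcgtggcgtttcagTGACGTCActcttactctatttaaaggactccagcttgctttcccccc
Dusp1 (chr10:17184641-17184776, + strand): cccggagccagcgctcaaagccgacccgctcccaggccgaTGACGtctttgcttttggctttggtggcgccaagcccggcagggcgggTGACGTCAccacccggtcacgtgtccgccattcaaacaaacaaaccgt

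The array's annotation uses the older build rn4, and each probe is placed there only to the base range it covers, since no gene models of that build were used here and the exon or UTR is therefore not given. Fos, the founding member of the AP-1 family, was read on chromosome 6 at 109561941 to 109562000. Its probe was close to background: it was above background on 4 of 24 arrays, namely Ch 6, ChGENE 4, ChGENE 7 and ChGENE 8, and on none of the ChHAYW arrays. Its level ran from −6.57 to −4.65 in Ch (median −6.17), from −7.10 to −4.93 in ChGENE (median −5.73) and from −7.09 to −4.92 in ChHAYW (median −6.25). The groups overlapped throughout. With most arrays of every diet below background, no fold is given for it here, and none of its 3 comparisons passed. The differences listed for it under other processing compare values mostly below background.

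Fosb, a Fos relative that can replace it in AP-1, was read on chromosome 1 at 78668672 to 78668731 and was above background on all arrays. In Ch its level ran from 0.87 to 4.22 with a median of 1.69 (mean 2.01 ± 1.07, SD, n = 8). In ChGENE the range was 1.13 to 2.42 (median 1.63, mean 1.71 ± 0.47) and in ChHAYW 0.79 to 2.43 (median 1.54, mean 1.56 ± 0.57). The wide spread in Ch came from rats Ch 4 and Ch 7, at 4.22 and 2.88, while the other 6 Ch rats lay at or below 2.01. Ch 4 also had the lowest 75th percentile of all arrays, at 188.

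Jun, the main partner of Fos, was read on chromosome 5 at 115359410 to 115359469. Its level ran from 0.12 to 2.73 in Ch (median 0.98, mean 1.11 ± 0.80, SD, n = 8), from 0.34 to 2.08 in ChGENE (median 1.14, mean 1.13 ± 0.48) and from −0.32 to 2.54 in ChHAYW (median 1.26, mean 0.99 ± 1.01). The group means differed by less than the spread within any group. Ch 7 and ChHAYW 4 were the highest 2 of the 24 rats, and the closely alike pair ChHAYW 6 and 7 the lowest 2, at −0.24 and −0.32.

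Junb, another Jun family partner of Fos proteins, was read on chromosome 19 at 24833225 to 24833284. Its level ran from 1.55 to 3.54 in Ch (median 2.33, mean 2.39 ± 0.72), from 1.45 to 4.24 in ChGENE (median 2.23, mean 2.55 ± 1.06) and from 1.19 to 3.50 in ChHAYW (median 1.62, mean 2.13 ± 0.87). The 2 highest values of all rats, 4.18 and 4.24, were those of the closely alike pair ChGENE 4 and 5, and the other 6 ChGENE rats lay at or below 2.34. Markers of neutrophils stood out in the same 2 arrays. S100a8, a calcium-binding protein of neutrophils named here after its values were seen, had levels of 3.93 and 4.04 in ChGENE 4 and 5 and between −4.15 and −2.81 in the other ChGENE rats. The summed level of the 9 neutrophil and monocyte markers was 5.66 and 5.72 there, between −0.02 and 0.96 in the other ChGENE rats, from 0.21 to 1.98 in Ch and from 0.11 to 1.74 in ChHAYW, and 0 of the 9 passed in any comparison. Other markers were high there too. The summed level of Kupffer cell and macrophage markers was 7.75 and 7.79 and that of stellate cell markers 3.89 and 3.97, the highest of the 24 rats, and that of sinusoidal endothelial markers was 5.59 and 5.47. Within ChGENE, Junb had r of 0.99 with neutrophil, 0.84 with Kupffer cell, 0.89 with endothelial and 0.77 with stellate cell markers (n = 8 rats, 2 of them this pair). Each r with markers here and below uses the mean log2 level of those above background on at least 20 arrays, not the summed level. These were 4 of the 9 neutrophil and monocyte, 10 Kupffer cell and macrophage, 7 endothelial and 9 stellate cell markers. How far these markers account for the Junb values was not tested beyond the correlations given here and below.

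Atf3, a CREB-related factor induced by cell stress, was read on chromosome 13 at 107191582 to 107191614. Its level ran from −2.72 to −1.50 in Ch with a median of −1.83 (mean −1.96 ± 0.42, SD, n = 8). In ChGENE it ran from −1.99 to 0.57 with a median of −0.98 (mean −0.92 ± 0.93), and in ChHAYW from −2.51 to 0.42 with a median of −1.52 (mean −1.26 ± 0.99). The largest gap between neighbouring values split the 24 rats into 2 sets, called clusters here, and no test of clustering was made. In 6 rats, ChGENE 4, 5, 7 and 8 and ChHAYW 3 and 5, the level lay between −0.53 and 0.57, and in the other 18, which include every Ch rat, between −2.72 and −1.42. The gap between the clusters was 0.89 on the log2 scale, or 1.85-fold. Other probes had largest gaps of like size: 0.80 for both Fos and the second Egr1 probe, each with 8 rats above, and 1.34 for Fosb with 1 rat above. The summed level of T, B and natural killer cell markers in these 6 rats was 1.06 in ChGENE 4, 1.18 in ChGENE 5, 0.65 in ChGENE 7, 1.67 in ChGENE 8, 1.58 in ChHAYW 3 and 1.52 in ChHAYW 5. In 5 of them it lay above every Ch rat, while ChGENE 7 lay inside the Ch range. Of these 10 markers, 5 were above background on at least 20 arrays, Ms4a1 on none, and 0 passed in any comparison. Their summed level spanned 0.33 to 0.92 among Ch rats, 0.13 to 1.67 among ChGENE rats and 0.07 to 1.58 among ChHAYW rats.

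The ChGENE-Ch comparison gave Atf3 the smallest p of the 10 genes. Its mean was higher by 1.04 on the log2 scale (SE 0.34, 95% interval 0.33 to 1.75), or 2.05-fold, with an unadjusted p of 0.00672 and an adjusted p of 0.0647 from limma over all probes, so it did not pass. The adjusted p ran from 0.0486 to 0.218 over 30 alternatives and fell under 0.05 in 1 of them, scaling to the median of each array in place of the 75th percentile. With the alike arrays averaged the difference was 1.00 (adjusted p = 0.118, limma). In the ChHAYW-Ch comparison the difference was 0.70 (95% interval −0.05 to 1.45, adjusted p = 0.226), and between ChGENE and ChHAYW it was 0.34 (−0.59 to 1.28, adjusted p = 0.904). The markers of Kupffer cells and macrophages had positive differences in ChGENE-Ch for 10 of 10 genes, with a median of 0.52 and 0 past the threshold. Their summed level lay between 5.69 and 7.04 in Ch, 5.67 and 7.79 in ChGENE and 5.80 and 7.43 in ChHAYW. In ChGENE-Ch, 8 of 10 T, B and natural killer cell markers (median 0.32) and 6 of 9 neutrophil and monocyte markers (0.51) were also positive. So were 6 of 8 sinusoidal endothelial (0.48) and 6 of 9 stellate cell markers (0.36). Medians were −0.33 for hepatocyte, −0.08 for bile duct and −0.21 for red blood cell markers. Over all probes, 10287 of 30367 differences were positive, with a median of −0.16. How far these markers account for the Atf3 values was not tested beyond the correlations given below. In bulk liver, more cells of a type and more RNA per cell cannot be told apart.

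Egr1, a zinc finger factor and classic target of SRF, was read at 2 places on chromosome 18. The brighter probe, at 27347173 to 27347232, had levels from 0.67 to 2.31 in Ch (median 1.37, mean 1.40 ± 0.56), from −0.28 to 2.09 in ChGENE (median 0.89, mean 0.94 ± 0.93) and from −0.91 to 3.10 in ChHAYW (median 0.76, mean 0.86 ± 1.17). ChHAYW thus held both the highest rat, ChHAYW 4, and the lowest, ChHAYW 8, which differed 16.1-fold. The second probe, at 27346058 to 27346117, spanned −2.60 to 0.52 among Ch rats, −3.09 to 0.19 among ChGENE rats and −3.21 to 0.97 among ChHAYW rats, with the same 2 ChHAYW rats at the ends. Across rats, centred on their diet means, the 2 probes correlated at r = 0.69 (permutation p = 0.00061, rho = 0.67 with permutation p = 0.00064, n = 24), and at r = 0.50 without ChHAYW 4 and 8 (permutation p = 0.025). Within Ch r was 0.73, within ChGENE 0.33 and within ChHAYW 0.93. Neither Egr1 probe passed in any comparison, and between ChGENE and ChHAYW their differences had opposite signs, 0.09 and −0.35.

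Myc, the transcription factor of growth and ribosome synthesis, was read on chromosome 7 at 98957687 to 98957746. Its level ran from −0.23 to 2.13 in Ch (median 0.57, mean 0.69 ± 0.85), from −0.25 to 1.04 in ChGENE (median 0.08, mean 0.20 ± 0.46) and from 0.34 to 2.18 in ChHAYW (median 0.76, mean 0.88 ± 0.62). Every ChHAYW rat lay above the 6 lowest ChGENE rats, and the groups overlapped through ChGENE 1 and 3. The difference of ChGENE from ChHAYW was −0.68 (SE 0.26, 95% interval −1.23 to −0.13), with an unadjusted p of 0.0179 and an adjusted p of 0.488 from limma. ChGENE-Ch gave −0.49 (−1.16 to 0.19) and ChHAYW-Ch 0.19 (−0.54 to 0.92). The 2 highest Ch values, 1.80 and 2.13, belonged to the closely alike pair Ch 1 and 2, and with such pairs averaged the ChGENE-Ch difference was −0.25 (adjusted p = 0.66, limma).

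Dusp1, the phosphatase that switches off MAP kinases, was read on chromosome 10 with a probe annotated to 16944342 to 16944661. It was above background on 21 arrays, the exceptions being Ch 4, Ch 6 and ChGENE 2. Its level ran from −5.17 to −2.56 in Ch (median −3.37, mean −3.58 ± 1.00), from −4.41 to −2.13 in ChGENE (median −3.80, mean −3.67 ± 0.73) and from −4.39 to −1.46 in ChHAYW (median −3.15, mean −3.07 ± 0.92). ChHAYW 1 and ChGENE 6 had the highest and second highest values, but the groups overlapped. The differences were −0.09 in ChGENE-Ch (95% interval −0.94 to 0.76), 0.52 in ChHAYW-Ch (−0.42 to 1.45) and −0.60 for ChGENE against ChHAYW (−1.42 to 0.21).

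Ier2, a nuclear protein of growth-stimulated cells, was read on chromosome 19 at 25160648 to 25160707. It was the most even of the genes in ChGENE, where the 8 rats lay between 1.94 and 2.26 (SD 0.12, at the 4th percentile of all probes above background), and it ran from 1.91 to 2.85 in Ch (SD 0.34) and from 1.60 to 3.83 in ChHAYW (SD 0.77, 97.9th percentile). For Ch, ChGENE and ChHAYW the medians were 2.37, 2.19 and 2.00 and the means 2.35, 2.14 and 2.30. Ier3, which protects cells from apoptosis, was read on chromosome 20 at 3076832 to 3076891, with levels of 0.45 to 2.58 in Ch (median 0.91, mean 1.16 ± 0.73), 0.76 to 1.98 in ChGENE (median 1.28, mean 1.26 ± 0.39) and 0.15 to 1.97 in ChHAYW (median 1.12, mean 0.97 ± 0.63). The highest Ier3 value belonged to Ch 4, and the 2 lowest to the alike pair ChHAYW 6 and 7.

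**Figure D1:**
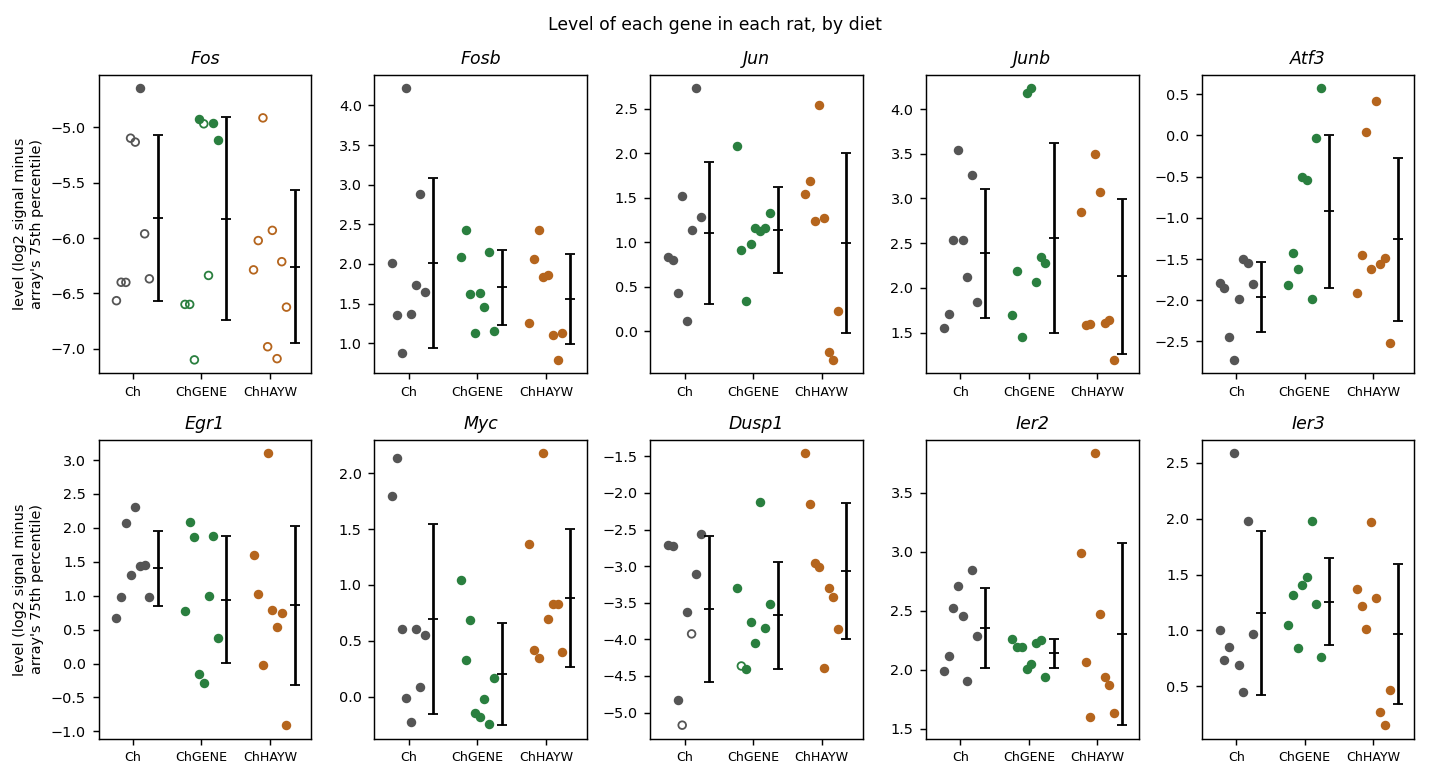
Level of each gene (log2 signal minus the 75th percentile of the array, each panel with its own scale) in each of the 24 rats, ordered by rat number within a diet. Filled points were above background on that array and open points were not, bars give the mean and SD of 8 rats, and the 3 diets overlap in every panel, with 6 ChGENE and ChHAYW rats standing above the rest for Atf3.

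Over all 10 genes, 0 of 11 probes passed in ChGENE-Ch, where 0.319% of all probes did (97 of 30367, with 0.0692% higher and 0.25% lower, by limma at an adjusted p below 0.05 plus a change of 1.3-fold or more). In ChHAYW-Ch 0 passed against 0% of all probes, and between ChGENE and ChHAYW 0 passed against 0.00659%, of which 0.00329% were higher and 0.00329% lower. Against shares this small, the lack of calls among 11 probes says nothing particular about these genes. The diets overlapped for all 11 probes, while 0.692%, 0.0593% and 0.0922% of all probes had no overlap in the 3 comparisons. By unadjusted p under 0.05 with the same fold, 1 probe was higher in ChGENE-Ch (Atf3, background 24.6%, with 3.47% higher and 21.1% lower), 0 differed in ChHAYW-Ch (background 22.8%, with 3.05% higher and 19.7% lower) and 1 was lower in ChGENE than in ChHAYW (Myc, background 5.93%, with 3.09% higher and 2.85% lower). The median difference over the genes, each at its brightest probe, was −0.05 in ChGENE-Ch, −0.15 in ChHAYW-Ch and 0.14 for ChGENE against ChHAYW, beside −0.16, −0.18 and −0.01 over all probes. Both comparisons with Ch use the same 8 Ch rats. For the 7 genes other than Atf3, Myc and Fos, the 95% intervals of the differences all include 0. Their outermost ends on the log2 scale were −1.60 (second Egr1 probe in ChGENE-Ch) and 1.45 (Dusp1 in ChHAYW-Ch). Some intervals reached much less far, such as −0.52 to 0.09 for Ier2 in ChGENE-Ch. For each gene, changes inside its own interval cannot be told from none with 8 rats per diet. The order of the diet means therefore has no pair of neighbours that differ beyond the threshold for any of the 10 genes.

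**Figure D2:**
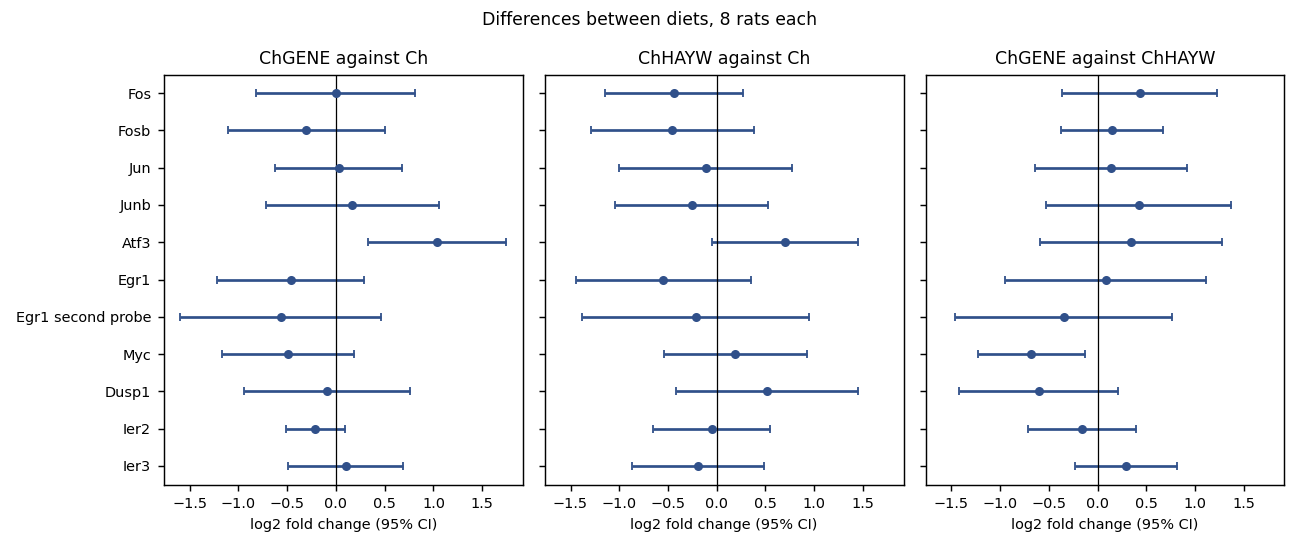
Log2 difference of each probe between diets (points) with its 95% confidence interval from limma (bars), 8 rats per diet, for the 3 comparisons. Intervals that exclude 0 before adjustment are those of Atf3 in ChGENE against Ch, 1.04 (0.33 to 1.75), and of Myc in ChGENE against ChHAYW, −0.68 (−1.23 to −0.13).

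Most of these genes varied widely among rats of one diet. The pooled within-diet SD was 0.319 for the median probe above background on all arrays. It was 0.49 for Ier2, 0.60 for Ier3, 0.66 for Myc, 0.75 for Fosb, 0.79 for Jun, 0.82 for Atf3, 0.90 for Junb and 0.92 for Egr1, and 1.14 for the second Egr1 probe. Of these 8 genes, 6 stood at or above the 90th percentile of the probes, from 93.1 for Myc to 98.7 for Egr1, while Ier3 stood just below it and Ier2 at 81.2. Dusp1 had an SD of 0.89, part of it from arrays near background. Before scaling, the SD was lower for Fosb (0.43), Jun (0.70) and Ier3 (0.52), and higher for Junb, Egr1, Atf3, Ier2 and Myc. The Fosb value lay below the within-diet SD of the subtracted 75th percentile itself, 0.46. How far scaling accounts for the spread of Fosb was not tested. Between the highest and lowest of the 24 rats the fold difference was 4.70 for Ier2, 5.37 for Myc, 9.83 for Atf3, 10.8 for Fosb and 16.1 for Egr1. ChHAYW 4 had the highest level of its diet in 6 of the 8 genes above background everywhere, namely Jun, Junb, Egr1, Ier2, Ier3 and Myc, whereas ChHAYW 6, 7 and 8 lay below their diet mean in all 8. In Ch, rats 4 and 7 were among the 2 highest in 5 and 6 of the 8. The 75th percentile subtracted from each level was lowest of all arrays on Ch 4 and Ch 7, at 188 and 335. It was highest on ChHAYW 6 and 7, at 917 and 1049, which are also a closely alike pair. The part of array depth in this pattern was not tested. No ChGENE rat was above its diet mean in more than 5.

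**Figure D3:**
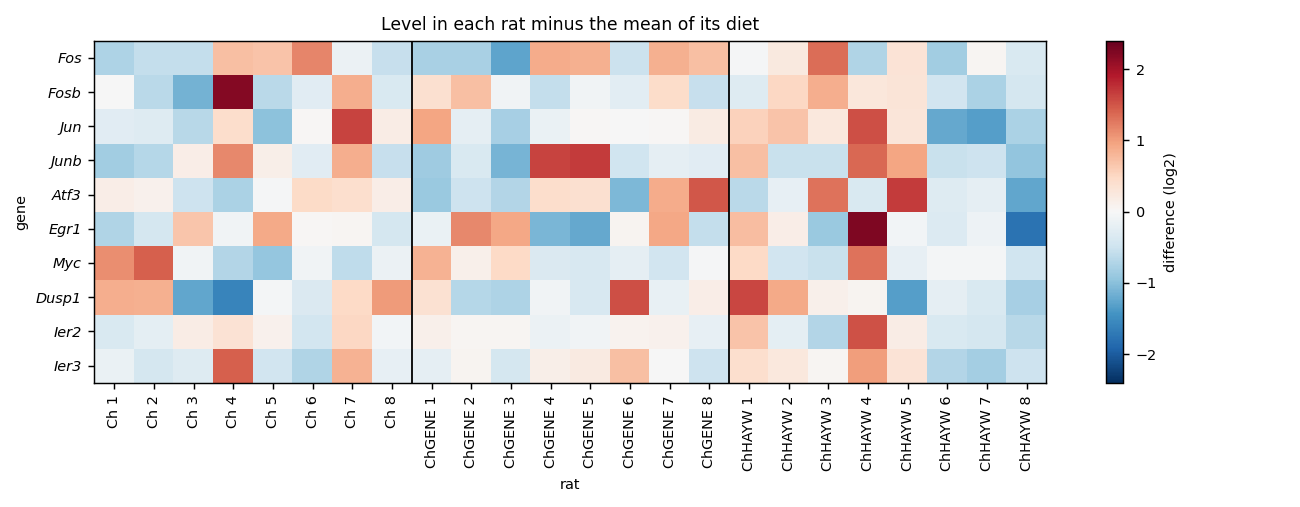
Level of each gene in each rat minus the mean of its diet (colour, log2), with the 24 rats in columns and black lines between diets. ChHAYW 4 is above its diet mean in 7 of the 8 genes above background on all arrays, and ChHAYW 6, 7 and 8 are below it in all 8.

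Whether the genes vary together was examined over the 36 pairs of the 9 genes above background on at least 20 arrays, with levels centred on the diet means and p-values from 100000 permutations of rats within diets, adjusted over the 36 pairs. Of the pairs, 7 had an adjusted p under 0.05 for both r and rho. All 7 involved Ier2, Ier3 or Jun. Because of the gap in the Atf3 values, its 8 pairs are left out of the counts and medians that follow. This was chosen after the data were seen, and values over all 36 pairs are named as such. For the Atf3 pairs no r over all rats is given. Genes such as Fosb, whose largest gap set 1 rat apart, were kept. Of the other 28 pairs, 22 had r above 0. Their median r was 0.25, beside 0.0151 over all pairs of probes above background everywhere, and within ChHAYW it was 0.66, within ChGENE 0.0520 and within Ch −0.00215. The median leaned on 1 rat: over all 36 pairs it was 0.19, and without ChHAYW 4 it was 0.0473. Of all 36 pairs, 25 had r above 0. Their median r was 0.46 within ChHAYW, −0.02 within ChGENE and −0.18 within Ch. Within the 18 rats of its lower cluster, where its range is narrowed, Atf3 had r between −0.26 and 0.35 with the other 8 genes. No adjusted permutation p there was under 0.05 for r or rho.

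Egr1 and Ier2 were the closest pair, at r = 0.74 (adjusted permutation p = 0.00108, rho = 0.63 with adjusted p = 0.0142, n = 24 rats). The values stayed related without ChHAYW 4 and 8 (r = 0.51, permutation p = 0.00244), with an r of 0.44 among Ch rats, 0.71 among ChGENE rats and 0.93 among ChHAYW rats. Jun and Ier3 had r = 0.71 (adjusted permutation p = 0.00768, rho = 0.69, adjusted p = 0.0142), with r = 0.61 without Ch 7 and ChHAYW 7 (permutation p = 0.00359) and 0.66, −0.00133 and 0.99 within Ch, ChGENE and ChHAYW. Ier2 and Ier3 had r = 0.66 (adjusted permutation p = 0.00702, rho = 0.65, adjusted p = 0.0229), with r = 0.60 without ChHAYW 1 and 4 (permutation p = 0.0106) and 0.75, 0.23 and 0.80 within Ch, ChGENE and ChHAYW. In all 3 pairs the rats of ChHAYW lined up most closely, but the difference between diets was not tested. They include the closely alike pair ChHAYW 6 and 7, and ChHAYW 4, the highest of its diet in each of these genes. No r within ChHAYW without these arrays is given.

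Junb moved with both Ier genes. With Ier2 it had r = 0.57 (adjusted permutation p = 0.00806, rho = 0.54, adjusted p = 0.0341), and with Ier3 r = 0.62 (adjusted permutation p = 0.00774, rho = 0.53, adjusted p = 0.0469). Within Ch, ChGENE and ChHAYW, r with Ier2 was 0.88, −0.62 and 0.92, and with Ier3 0.80, 0.35 and 0.80. Over the rats of all 3 diets without ChGENE 4 and 5, r was 0.83 with Ier2 (permutation p = 4e-05) and 0.74 with Ier3 (permutation p = 0.00053). Fosb was related to Ier3 (r = 0.70, adjusted permutation p = 0.00966, rho = 0.64, adjusted p = 0.0176) and to Jun (r = 0.55, adjusted permutation p = 0.0465, rho = 0.65, adjusted p = 0.0142). Without Ch 4 and Ch 7, r fell to 0.37 for Fosb and Ier3 (permutation p = 0.142), while Fosb and Jun then had r = 0.53 (permutation p = 0.0283). Within the same diets in turn, Fosb and Ier3 had 0.92, −0.02 and 0.64, and Fosb and Jun 0.65, 0.16 and 0.70.

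Fosb also followed the depth of the array, with a larger r in size than it had with any other gene of the 9. Its r with the log2 75th percentile of the array, centred on the diet means, was −0.85 (permutation p = 1e-05, the smallest these permutations can give, adjusted over 81 relations with depth and cell markers 0.00081, rho = −0.72 with adjusted p = 0.0243, n = 24). Without Ch 4 and Ch 7 it was −0.76 (permutation p = 0.00011), and within the diets it was −0.88 in Ch, −0.60 in ChGENE and −0.95 in ChHAYW. Fosb lay at percentile 1.3 of this r among all probes above background, and before scaling its within-diet SD was 0.43 against 0.75 after it. No other gene of the 9 passed for depth, Ier3 having r = −0.54 (adjusted permutation p = 0.176) and Jun r = −0.48 (adjusted permutation p = 0.217). With the 75th percentile removed by regression, an alternative chosen after the data were seen, r was 0.54 for Fosb and Ier3 and 0.31 for Fosb and Jun, while it was 0.74 for Egr1 and Ier2, 0.61 for Jun and Ier3, 0.75 for Ier2 and Ier3, 0.56 for Junb and Ier2 and 0.68 for Junb and Ier3. With the alike arrays averaged to 21 rats, 6 pairs passed, and the pair lost was Fosb and Jun (r = 0.53, adjusted permutation p = 0.12).

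**Figure D4:**
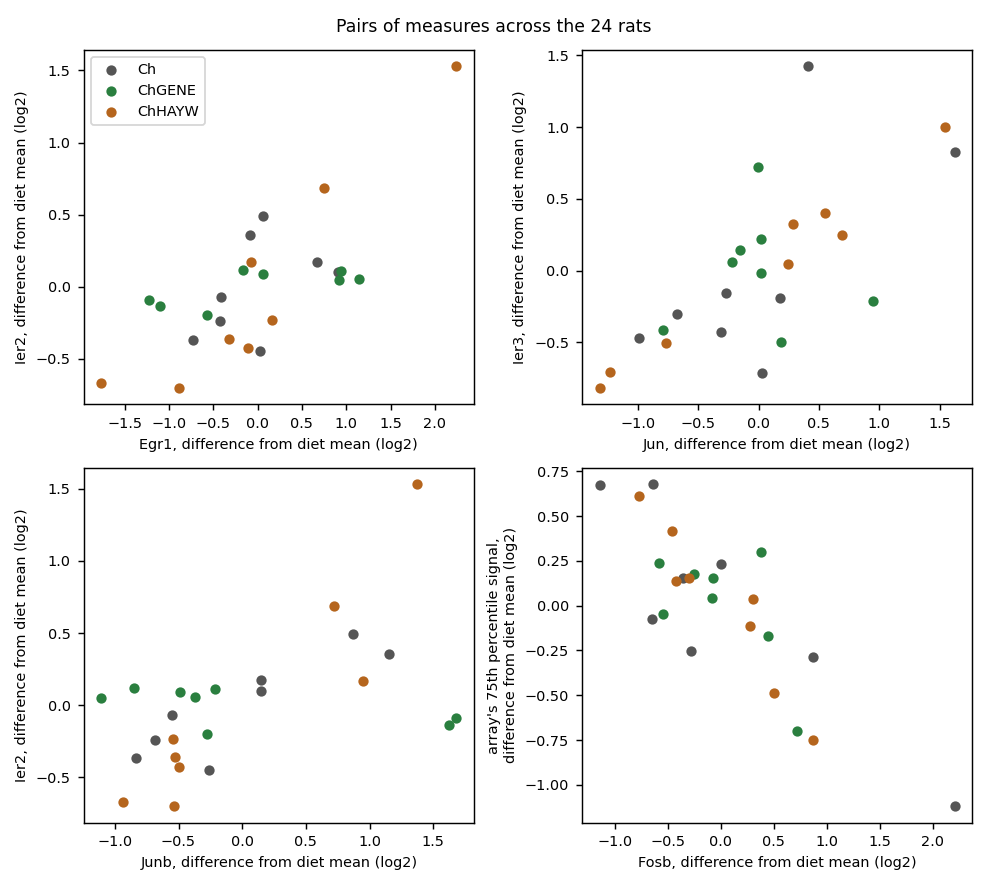
Each point is 1 of 24 rats, coloured by diet, with both axes as differences from the diet mean on the log2 scale: Egr1 and Ier2 (r = 0.74), Jun and Ier3 (r = 0.71), Junb and Ier2 (r = 0.57, with ChGENE 4 and 5 far to the right), and Fosb against the 75th percentile signal of the array (r = −0.85). The first pair keeps r = 0.51 without its 2 outermost rats, ChHAYW 4 and 8.

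In all relations with cell type markers, the marker level is the mean of those above background on at least 20 arrays. That leaves 5 of the 10 T, B and natural killer cell markers. Of the other relations with cell type markers, those of Junb with neutrophil markers gave r = 0.55 (adjusted permutation p = 0.176, rho = 0.37, adjusted p = 0.399), which became −0.03 without ChGENE 4 and 5 (permutation p = 0.919). Egr1 had r = −0.54 with Kupffer cell and macrophage markers (adjusted permutation p = 0.139, rho = −0.55, adjusted p = 0.125) and −0.53 with neutrophil markers (adjusted permutation p = 0.139, rho = −0.55, adjusted p = 0.117). Within ChGENE these were −0.96 and −0.84, within Ch 0.34 and −0.05, and within ChHAYW −0.48 and −0.35. Atf3 had r = 0.53 with Kupffer cell and macrophage markers (adjusted permutation p = 0.172, rho = 0.58, adjusted p = 0.117). Within Ch, ChGENE and ChHAYW it was 0.42, 0.43 and 0.83. None of these passed the adjustment. Of the 81 relations with depth and cell markers, the only other one besides Fosb with depth to have an adjusted p of r under 0.05 was that of Atf3 with T, B and natural killer cell markers (adjusted permutation p = 0.0215, and 0.0701 for rho). Over the 24 rats r was 0.76 and rho 0.68, and r was 0.63 without ChGENE 8 and ChHAYW 5 (permutation p = 0.0122). Within Ch, ChGENE and ChHAYW it was 0.14, 0.70 and 0.91. All but the Ch value span both Atf3 clusters. Within the 18 rats of the lower cluster r was 0.24 (adjusted permutation p = 0.923) and rho 0.36 (adjusted permutation p = 0.737). That subset narrows the range of Atf3, which can weaken r, so it does not show the relation to be absent.

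No gene of the wider pathway lists was called either. With 0.319%, 0% and 0.00659% of all probes called in the 3 comparisons, 0 calls in lists of 8 to 28 genes do not set these lists apart. Among 25 further immediate early transcription factors, 0 were called in the 3 comparisons, the median difference in ChGENE-Ch was −0.01, and the smallest p was that of Cebpb, a factor of the acute phase response, at −0.86 in ChGENE-Ch (SE 0.23, adjusted p = 0.0608, limma) and −0.92 in ChHAYW-Ch (SE 0.22, adjusted p = 0.11). Among 28 further effectors 0 were called, with Pim3, a survival kinase, at −0.81 in ChGENE-Ch (adjusted p = 0.0608) and Btg1, an antiproliferative protein, at −0.68 in ChHAYW-Ch (adjusted p = 0.11). The 19 AP-1 and CREB family partners, the 8 genes of SRF and its cofactors, the 19 ligands and receptors, the 21 kinases of the MAP kinase cascade and the 17 AP-1 and Myc target genes had 0 calls each. Fosl1, with the smallest p among the AP-1 partners in ChGENE-Ch, was above background on 0 of 8 ChGENE and 3 of 8 Ch arrays. In the other lists Ep300 had −0.33 (0.17), Hgf, the hepatocyte growth factor, 0.60 (0.0608), Map2k3 −0.55 (0.0608) and Ldha 0.37 (0.147) in ChGENE-Ch. Of the 21 measured feedback inhibitors and mRNA decay factors, 0 were called, and Zfp36, which destabilises immediate early mRNAs, was at −1.05 in ChGENE-Ch (SE 0.29, adjusted p = 0.0608, limma). Of 12 Myc partners and antagonists 0 were called, and Mycn, with the smallest p in both comparisons with Ch, was above background on 0 of 24 arrays, so no difference is given for it. Between ChGENE and ChHAYW the smallest p in these lists was that of Pdgfrb, a growth factor receptor of stellate cells, at 1.04 (SE 0.21, adjusted p = 0.114).

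The genes most like the set across the 24 rats, by r between their diet-centred level and the mean of the 8 standardised genes above background everywhere, Atf3 included, were Zbtb43 (r = 0.83), Rbm15 (0.82), Mylk, Lcor and Ahr (0.81 each), Ap1ar, Agpat1, Rtp3, Esyt1 and Atrx (0.80 each), out of 10461 probes compared. All 10 also had negative r with the 75th percentile of the array, from −0.78 for Lcor to −0.48 for Atrx and Agpat1, and none of them is in the pathway lists above. Taken gene by gene, Fosb was matched by Arnt2 at r = 0.995 and Zbtb8b at 0.994, both of which also followed array depth (r = −0.82 and −0.835). Junb was matched by Pdgfra (0.84) and Steap4 (0.84), Egr1 by Fchsd2 (0.79) and Slc16a11 (0.78), Ier2 by Pi4kb (0.83) and Foxa2, a liver transcription factor (0.79), Ier3 by Adck2 (0.87), Jun by Usp42 (0.78) and Igip (0.76), and Myc by Ift88 (0.76) and Peo1, the mitochondrial helicase Twinkle (0.75). These are descriptions over 24 rats that share arrays and scaling, chosen as the highest of many, and carry no p.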

How the data were processed

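Liver RNA of 24 rats was hybridised singly to 1-colour Agilent rat arrays (62976 spots). Per the labels RNA had a high integrity number. The labels and the study's methods name different labelling kits. The authors extracted the data with Agilent Feature Extraction 10.10.1.1. The intensities as deposited (processed signal) are on a linear scale, background-corrected by that software and not scaled between arrays. In all, 0 of 1511424 spots differed from the authors' deposited value table.

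Spots marked as outliers were left out (45 of 728808 probe values, with all spots so marked, were kept), the log2 intensities of a probe's spots were averaged, and each array's 75th percentile was subtracted. A probe was above background where a share of at least 0.5 of its spots were marked so. limma 3.58.1 (lmFit and eBayes) was fitted to the 16 arrays of each comparison over 30367 probes with Benjamini-Hochberg adjustment. A call needed an adjusted p below 0.05 together with a change of 1.3-fold or more. Correlations used numpy and scipy, and scripts were tested on simulated data. Alternatives were normexp, quantile, median, spike-in, detected-probe and cyclic loess scaling, spot and dim-probe filters, the methods' t-test, trend, array weights, all 24 arrays, the replicate block and leaving out each rat. The genes, gene lists and tests were chosen with earlier results of these data known. Named genes are all 10 genes, the list member with the smallest p in a comparison (the rule allowed 2), the 10 genes most like the set and the 2 most like each gene, of which some are not reported here. Of the probes, 18643 matched a RefSeq transcript. P-values measure the spread between these 8 rats per diet. The precision is limited by the number of arrays.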

Additional observations from a re-analysis of the deposited data

How the results depend on the processing

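No probe of the 10 genes passed in any of the 48 fits that left out 1 rat. Leaving out 1 rat reversed the sign of 41 of 528 differences and the other alternatives 33 of 458. The reversed values reached 0.60 on the log2 scale under spike-in scaling, and the cause was not tested. With each rat left out, the number of all probes called ran from 0 to 4957 in ChGENE-Ch (0 without Ch 2, ChGENE 3 or ChGENE 4, 4957 without Ch 3), from 0 to 4588 in ChHAYW-Ch (4588 without ChHAYW 3) and from 0 to 33 between ChGENE and ChHAYW (33 without ChGENE 1). The differences that changed sign ran from −0.13 to 0.18 (Fos), −0.47 to 0.00869 (Fosb), −0.11 to 0.26 (Jun), −0.0728 to 0.33 (Junb), −0.32 to 0.0575 (Dusp1) and −0.00276 to 0.30 (Ier3) in ChGENE-Ch. In ChHAYW-Ch they ran from −0.33 to 0.12 (Jun), −0.53 to 0.0654 (second Egr1 probe), −0.27 to 0.0470 (Ier2) and −0.33 to 0.0140 (Ier3), and between ChGENE and ChHAYW from −0.0477 to 0.36 (Jun), −0.17 to 0.41 (Egr1) and −0.26 to 0.0581 (Ier2). The median r of all 36 pairs, those of Atf3 included, was 0.19 and ran from 0.0473 (without ChHAYW 4) to 0.212.

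In ChGENE-Ch, 97 probes were called (21 higher, 76 lower). The number was 10197 with normexp (203 higher, 9994 lower), 64 with quantile normalization (27 and 37), 4623 with median scaling (200 and 4423), 21 with the 75th percentile of detected probes (11 and 10), 157 with a filter on dim probes, 245 with the methods' t-test, 3676 with array weights, 2863 with all 24 arrays in 1 fit and 0 with alike arrays averaged. In ChHAYW-Ch, where limma called 0 and 6910 had an unadjusted p under 0.05 with the fold, it was 11480 with normexp, 3240 with median scaling, 2 with spike-in scaling, 1 with cyclic loess and 5703 with array weights. Between ChGENE and ChHAYW, with 2 called, it was 11, 18, 10, 9, 0 and 17 with normexp, quantile, median, detected-probe, spike-in and cyclic loess scaling, and 21, 1, 19, 62, 8 and 0 with the dim filter, the methods' t-test, trend with robust fitting, array weights, all 24 arrays and alike arrays averaged. Of the 10 genes, 1 was called with median scaling (Atf3 in ChGENE-Ch, 1.00, adjusted p = 0.0486, limma) and 1 with normexp (Fos in ChHAYW-Ch, −0.55, adjusted p = 0.0454, with a range of 0.0454 to 0.995 over alternatives). Fos was above background on 0 of 8 ChHAYW and 1 of 8 Ch arrays, so that call compares values mostly below background.

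Spike-in scaling moved the median of all probes by 0.46 in ChGENE-Ch, 0.65 in ChHAYW-Ch and −0.19 between ChGENE and ChHAYW. Under it the differences were 0.46 (Fos), 0.15 (Fosb), 0.37 (Dusp1) and 0.25 (Ier2) in ChGENE-Ch. In ChHAYW-Ch they were 0.21 (Fos), 0.20 (Fosb), 0.54 (Jun), 0.39 (Junb), 0.10 (Egr1), 0.43 (second Egr1 probe), 0.60 (Ier2) and 0.46 (Ier3), and between ChGENE and ChHAYW −0.0411 (Fosb), −0.0495 (Jun) and −0.10 (Egr1). Other shifts of that median above 0.1 were, in ChGENE-Ch and ChHAYW-Ch, −0.18 and −0.21 with normexp, 0.14 and 0.17 with quantile normalization, 0.17 and 0.18 with cyclic loess and 0.14 and 0.17 with the dim filter. Fos turned to 0.37 and 0.00518 with quantile normalization, 0.46 and 0.0363 with cyclic loess, and in ChGENE-Ch to 0.0690 with detected-probe scaling and 0.24 with array weights. Jun in ChGENE-Ch was −0.0102 with median scaling. In ChHAYW-Ch, Ier2 was 0.0120 with normexp and 0.00862 with detected-probe scaling, Dusp1 −0.13 with normexp, and array weights gave Junb 0.15, Ier2 0.18 and Myc −0.19. With alike arrays averaged, ChGENE-Ch gave Jun −0.00530, Junb −0.18 and Dusp1 0.0681, ChHAYW-Ch gave Jun 0.0267, and ChGENE against ChHAYW gave Jun −0.0320.

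Rats of the same number shared only that number, their deviations correlating at −0.42 to 0.49 with 1 of 24 matching its own number best. A replicate block left 4 calls (0 higher, 4 lower) in ChGENE-Ch and 0 between ChGENE and ChHAYW, and changed no call among the 10 genes. Signal limits Fos, above background on 4 arrays, and Dusp1, on 21.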
